A study of Mus musculus with 6 samples.

Results

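The genes that mark neurons using GABA, glycine or glutamate as transmitter were measured by 13 probe sets for 6 genes, Gad1, Gad2, Slc32a1, Slc6a5, Slc17a6 and Slc17a7, out of 18193 genes and 45037 probe sets. They were taken by name, as every probe set that the platform annotation pairs with 1 of these symbols and no other. The samples were embryoid bodies, suspended aggregates of differentiating cells, grown from 1 mouse embryonic stem cell line in which the Rosa26 promoter drives a Gli1-FLAG transgene in all cells, so cultures of both groups carried it. After 2 days in suspension, 3 RA cultures received 500 nM all-trans retinoic acid for 3 days, and 3 Ag1.3 cultures received the same retinoic acid together with 50 nM Ag1.3, an agonist of the hedgehog transducer Smoothened. Cultures with the same number were grown in parallel, which makes 3 pairs, and RNA of each whole culture was read on 1 array. The comparison asks how these genes differ after stimulation of the hedgehog pathway.

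A neuron's fast transmitter can be read from the genes that make it and load it into vesicles. Gad1 and Gad2 encode the enzymes that make GABA from glutamate, Slc32a1 encodes the transporter that fills vesicles with GABA or glycine, and Slc6a5 the membrane transporter by which glycine neurons take glycine up. Slc17a6 and Slc17a7 encode vesicular glutamate transporters, of which Slc17a6 is the main one in spinal cord and brainstem and Slc17a7 in the cerebral cortex. In the embryonic spinal cord, motor neurons use acetylcholine, while interneurons of the different domains use GABA, glycine or glutamate.

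After 3 days of Ag1.3 all 6 genes were dim in both groups and none of them passed the test for a change, while 14 of 22 general neuron genes rose. By limma, 0 of the 6 reached an adjusted p of 0.05 and 0 an unadjusted p of 0.05. Over all 18193 genes 1.39% passed at the adjusted threshold, 1.07% as higher and 0.313% as lower, and 14.9% at the unadjusted one. Among the 5189 genes with a mean intensity no higher than that of the brightest of the 6, 0.251% passed. Log2 fold changes of the 6 lay between -0.02 and 0.21, with a median of 0.12 against -0.01 over all genes. These values rest on the brightest probe set of each gene, and their signs depended on that choice. When the probe sets of a gene were averaged instead, Gad1, Gad2 and Slc6a5 turned to -0.065, -0.12 and -0.015. Slc32a1 and Slc17a6 stayed above 0, at 0.031 and 0.092, and Slc17a7 has 1 probe set. When arrays were scaled to their hybridization spikes, the median of all genes moved to -0.16, and Gad2 and Slc17a6 turned to -0.057 and -0.016. Fold changes are differences in log2(intensity + 16), a scale that understates the change of dim genes. In whole cultures, fewer cells of a type and less RNA per cell cannot be told apart.

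The 78 intensities of the 13 probe sets ran from 1 to 41.5 with a median of 19.9. The 18 intensities of 3 control probe sets for bacterial Trp genes, with no matching spike, ran from 4.02 to 20.7 and served as a rough mark of background. Of the 78 values 37 lay above that range, and 6 of the 13 probe sets had a mean over the 6 arrays above it. On single arrays 4 to 7 of the 13 probe sets in RA and 5 to 9 with Ag1.3 exceeded the range. Probe sets differ in how strongly they respond, and no array from a tissue with known levels of these transcripts was analysed here, so a low reading and a poorly responding probe set cannot be told apart.

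**Figure D1:**
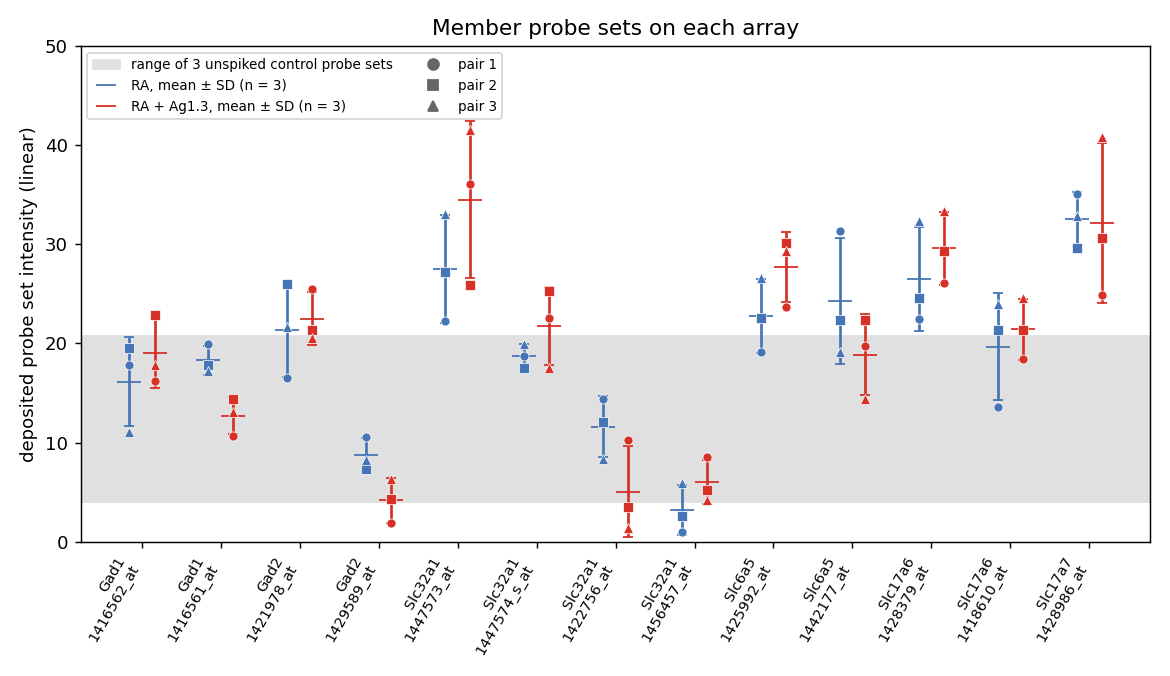
Deposited intensity (linear) of each of the 13 probe sets on each array, with RA in blue and RA with Ag1.3 in red, symbols for the 3 pairs, horizontal lines for means and bars for SD (n = 3). The grey band is the range of the unspiked controls, 4.02 to 20.7; no value exceeds 41.5, and for most probe sets the groups overlap.

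The GABA-synthesizing enzymes read close to background. The probe set that represented Gad1, the one with the higher mean of its 2, read 17.9, 19.5 and 11.1 in the RA cultures of pairs 1 to 3 and 16.2, 22.9 and 17.9 in their Ag1.3 partners. All values below are in this order. The groups overlapped, and only the Ag1.3 culture of pair 2 lay above the control range. The change on the log2 scale was 0.13 (SE 0.10, limma's adjusted p = 0.636), higher in 2 of 3 pairs. The other Gad1 probe set, 1416561_at, read 20.0, 17.8 and 17.2 in RA and 10.7, 14.4 and 13.1 with Ag1.3. It was lower in 3 of 3 pairs with groups that did not overlap, at -0.26 (SE 0.10). In limma's fit over all 45037 probe sets this gave an unadjusted p = 0.038 and an adjusted p = 0.394. Its values all lay within the range of the controls, so the probe sets of Gad1 point in opposite directions and neither passed.

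The probe sets of Gad2 also differed in sign. Its representing probe set read 16.5, 26.0 and 21.6 in RA and 25.5, 21.4 and 20.6 with Ag1.3. The Ag1.3 values lay inside the range of the RA values, and the change was 0.05 (SE 0.12, adjusted p = 0.897), higher in 1 of 3 pairs. The other probe set, 1429589_at, read 10.6, 7.30 and 8.23 in RA and 1.84, 4.32 and 6.35 with Ag1.3. It was lower in 3 of 3 pairs without overlap of the groups, at -0.30 (SE 0.12, unadjusted p = 0.047, adjusted p = 0.419) and at intensities within or below the range of the controls.

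Slc32a1, the vesicular carrier shared by GABA and glycine neurons, had 4 probe sets that did not move together. Its representing probe set, 1447573_at, read 22.2, 27.2 and 33.1 in RA and 36.1, 25.9 and 41.5 with Ag1.3. All 6 values exceeded the control range, the groups overlapped and pair 2 went the other way from pairs 1 and 3. Its change of 0.21 (SE 0.11, adjusted p = 0.468) was the largest of the 6 genes. The probe set 1422756_at, whose annotated accession is a RefSeq transcript of the gene, read 14.4, 12.0 and 8.30 in RA and 10.2, 3.52 and 1.41 with Ag1.3. All of these values were within or below the range of the controls, and the change of -0.41 (SE 0.10, lower in 3 of 3 pairs, unadjusted p = 0.0074) did not pass with adjusted p = 0.216, the lowest of the 13 probe sets. The remaining probe sets, 1447574_s_at and 1456457_at, changed by 0.12 and 0.20 on the log2 scale, each higher in 2 of 3 pairs. The first of these was built from the same annotated accession as the representing probe set.

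The glycine transporter Slc6a5 was read by 2 probe sets of opposite sign. The representing one read 19.1, 22.6 and 26.6 in RA and 23.6, 30.1 and 29.4 with Ag1.3. It was higher in 3 of 3 pairs, the groups overlapped, and the change of 0.17 (SE 0.08) had the lowest p of the 6 genes, 0.071 unadjusted and 0.387 adjusted. The other, 1442177_at, averaged 24.3 ± 6.36 in RA and 18.9 ± 4.06 with Ag1.3 (SD, n = 3 each). Its change was -0.20 (adjusted p = 0.547), lower in 2 of 3 pairs.

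Of the glutamate transporters, Slc17a6 was the gene whose probe sets resembled each other. The representing one read 22.5, 24.6 and 32.4 in RA and 26.1, 29.3 and 33.4 with Ag1.3, and the second, 1418610_at, 13.6, 21.4 and 24.0 in RA and 18.4, 21.4 and 24.6 with Ag1.3. In both probe sets and in both groups pair 1 gave the lowest value and pair 3 the highest, and each pair was higher with Ag1.3 by a small amount. In the second probe set pair 2 differed by only 0.00077 on the log2 scale. The changes were 0.11 (SE 0.08, adjusted p = 0.602) and, for the second, 0.08 (SE 0.09, adjusted p = 0.804). Group means of the first, 26.5 ± 5.21 in RA and 29.6 ± 3.64 with Ag1.3 (SD, n = 3 each), differed by less than the SD within either group. Slc17a7, with 1 probe set, read 35.1, 29.6 and 32.8 in RA and 24.9, 30.7 and 40.9 with Ag1.3. The Ag1.3 values spread to both sides of the RA values, and the change was -0.02 (SE 0.12, adjusted p = 0.954).

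**Figure D2:**
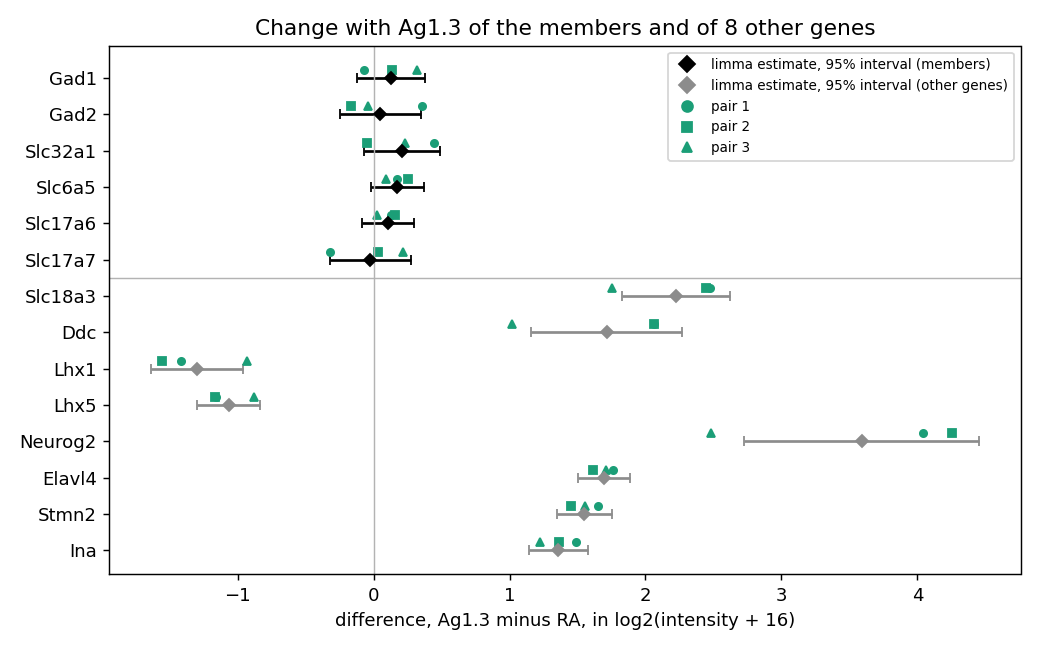
Difference between Ag1.3 and RA in log2(intensity + 16) for the 6 genes (black, above the line) and 8 named genes of other lists (grey). Diamonds are limma's estimates with 95% intervals and green symbols the 3 pairs, for the representing probe set of each gene. These intervals of the 6 genes all include 0 and end at or below 0.49.

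For the representing probe sets, the 95% intervals of the 6 log2 fold changes reached from -0.32 for Slc17a7 to 0.49 for Slc32a1. The latter is a 1.41-fold difference on the log2(intensity + 16) scale. Smaller differences than these were not resolved with 3 pairs, and the intervals do not show that the genes were equal between the groups. In the fit over all probe sets, 3 other probe sets had 95% intervals below 0. These were 1422756_at of Slc32a1 (-0.65 to -0.16), 1429589_at of Gad2 (-0.59 to -0.006) and 1416561_at of Gad1 (-0.50 to -0.02). Intervals of the remaining probe sets included 0. Counted over probe sets, 8 of the 13 read higher and 5 lower with Ag1.3, and 6 of 13 (46.2%) moved in the same direction in 3 of 3 pairs against 33.2% of all probe sets. The groups did not overlap for 2 of 13 (15.4%), against 11.2% of all probe sets, and 3 of 13 had an unadjusted p under 0.05, against 11.6%. By limma 0 of the 13 passed over all probe sets, against 0.515% of all. Of the 6 genes, 2 moved the same way in 3 of 3 pairs, against 36.7% of all genes. Probe sets of 1 gene share their target, so these counts do not rest on 13 separate genes.

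General neuron genes were measured above background in the same cultures, and most of them rose. Of 22 such genes 14 rose and 0 fell, with a median log2 fold change of 0.91, and all 22 had a mean above the control range. Elavl4, which encodes a neuronal RNA-binding protein, read 376, 364 and 233 in RA and 1312, 1148 and 798 with Ag1.3 (limma, adjusted p = 0.00287). Stmn2, a microtubule regulator of growing axons, read 272, 241 and 203 and then 886, 686 and 628 (adjusted p = 0.00363), and Ina, a neurofilament subunit, rose 2.57-fold on the log2 scale (adjusted p = 0.00723). For Elavl4 and Stmn2 the groups were far apart. The rise was not shared by the whole list, and Syt1 was lower in 3 of 3 pairs (-0.11, limma's adjusted p = 0.605). Syn1, Vamp2, Syp and Snap25 changed by 0.17, 0.27, 0.39 and 0.70 and did not pass, with adjusted p from 0.0905 to 0.545. Syt1 and these genes were named after their values were seen. Without pair 1, 2 or 3 the count of general neuron genes that rose was 5, 3 or 6 of 22, and 6 without the replicate block. Ina had adjusted p = 0.0501 without pair 2.

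Each of the 6 transmitter genes had a lower log2 change than the median of these general neuron genes in every pair. The median log2 level of the general neuron genes was higher with Ag1.3 by 0.78, 0.72 and 1.11 in pairs 1 to 3. Subtracting that median on each array left mean differences of -0.74 ± 0.14 for Gad1, -0.82 ± 0.36 for Gad2 and -0.66 ± 0.28 for Slc32a1 (SD over n = 3 pairs). They were -0.70 ± 0.29 for Slc6a5, -0.76 ± 0.28 for Slc17a6 and -0.89 ± 0.21 for Slc17a7. The pair values over all 6 genes ran from -1.15 to -0.34. These are descriptions with no test, and since the 6 genes are dim, the pseudocount and background limit how far their log2 values can move. Because the reference median rose in each pair, a gene with no change would also read below 0.

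**Figure D3:**
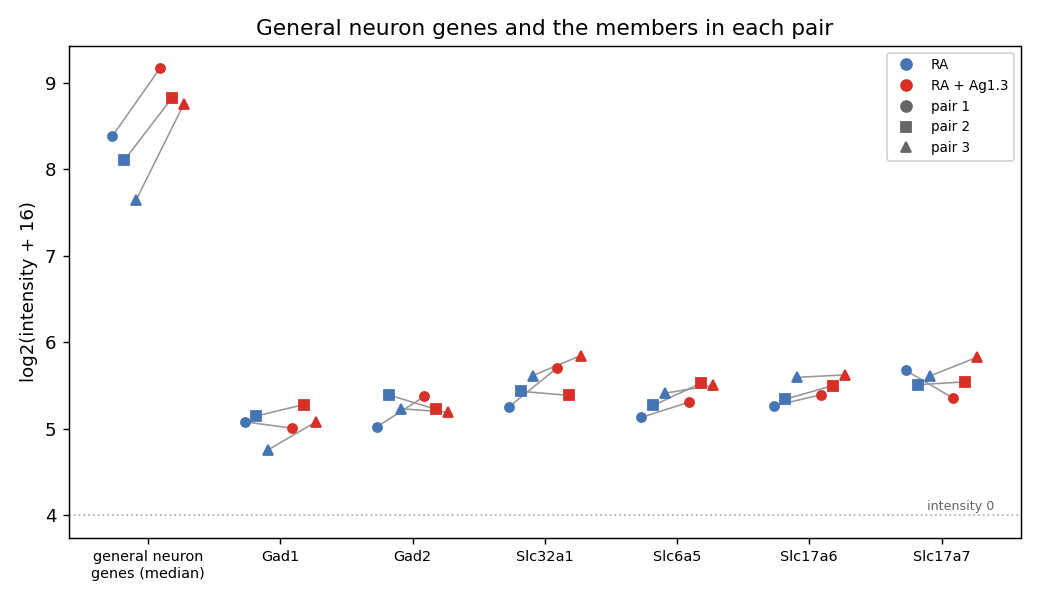
Log2(intensity + 16) in RA (blue) and with Ag1.3 (red), joined within each pair, for the median of 22 general neuron genes and for the 6 transmitter genes; the dotted line marks an intensity of 0. The neuron median rises in each of the 3 pairs, by 0.78, 0.72 and 1.11, while lines of the transmitter genes are short and mixed in direction for Gad1, Gad2, Slc32a1 and Slc17a7.

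Genes of other transmitters were also mostly dim, and 1 of each list rose. Of the 4 acetylcholine genes, Slc18a3, the vesicular acetylcholine transporter, read 16.5, 8.57 and 15.4 in RA, in the range of the controls. With Ag1.3 it read 165, 118 and 89.8 (limma, adjusted p = 0.00968), so its probe set rose from the level of the controls. How the probe sets of the GABA, glycine and glutamate genes respond is not shown by this. The size of the Slc18a3 change depends on the pseudocount, at 2.22 on the log2 scale with 16, 1.26 with 64 and 3.12 with 1. Chat, which makes acetylcholine, went from 46.8 ± 6.34 to 63.7 ± 3.40, higher in 3 of 3 pairs with adjusted p = 0.129. Ache and Slc5a7 had changes of 0.42 and 0.02 (adjusted p = 0.211 and 0.973). Of 8 monoamine genes Ddc, which makes dopamine and serotonin from their amino acid precursors, rose from 178 ± 58.1 to 607 ± 86.0 (adjusted p = 0.0368), while the serotonin transporter Slc6a4 averaged 1.76 and 1.64. Without pair 2 adjusted p was 0.0512 for Slc18a3, and for Ddc it was 0.151 without pair 1 and 0.183 without pair 2.

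Among genes that take up, supply or break down these transmitters none passed at the settings used throughout, and some passed under alternatives. Of 11 measured genes of GABA and glycine handling 0 passed by limma, 4 had an unadjusted p under 0.05, and the median change was -0.06. The lowest p belonged to Gldc, a subunit of the glycine cleavage system, at 478 ± 68.0 and 374 ± 42.6 (log2 fold change -0.34, adjusted p = 0.169), and Shmt1, which interconverts serine and glycine, at -0.27 (adjusted p = 0.206). Of 11 genes of glutamate handling 0 passed as well, with 3 at an unadjusted p under 0.05 and a median of 0.07. Slc1a2 and Slc1a3, glutamate uptake carriers of glia, had changes of 0.53 and 0.32 (adjusted p = 0.103 and 0.133). Of the GABA and glycine handling genes 3 of 11 passed as lower with spike scaling, 2 of 6 among genes above the median intensity and 1 of 11 with a variance moderation that takes intensity into account. Of the glutamate handling genes 3 of 11 passed as higher with a pseudocount of 64, 3 of 9 above the median intensity and 2 of 11 with that moderation, while with spike scaling their median was -0.06. Over all genes 1807 of 18193 passed with spike scaling, 17.4% of them as higher, with a median of -0.16. The number was 910 of 9096 above the median intensity, 891 with that moderation and 831 with a pseudocount of 64.

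Transcription factors of transmitter fate changed in few cases. Of 14 factors of GABA and glycine neurons 2 fell and 0 rose, with a median of -0.01. By limma 4 of the 14 had an unadjusted p under 0.05, against 14.9% of all genes. These were Lhx1, Lhx5, Ptf1a and Gata3, all lower with Ag1.3, while 6 of the 14 had values above 0. Lhx1, which with Lhx5 is needed for the inhibitory identity of dorsal interneurons, read 283, 201 and 99.7 in RA and 96.1, 57.9 and 44.8 with Ag1.3 (log2 fold change -1.30, adjusted p = 0.0216). Every pair was lower with Ag1.3, and the groups did not overlap. Lhx5 read 66.1, 56.1 and 28.3 and then 20.8, 16.2 and 8.03 (log2 fold change -1.07, adjusted p = 0.013), the last values being at background. Ptf1a, the factor that selects GABA fate in the dorsal cord, went from 27.7 ± 3.01 to 16.3 ± 0.43 and did not pass (adjusted p = 0.078). It was named after its value was seen. Without pair 1 or pair 2, adjusted p was 0.114 and 0.111 for Lhx1 and 0.0791 and 0.0890 for Lhx5. Without the replicate block, limma's adjusted p was 0.392 for Lhx1 and 0.262 for Lhx5.

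Of 15 factors of glutamate neurons 1 rose and 0 fell, with a median of 0.05 that was -0.07 with spike scaling. This was Neurog2, a proneural factor that motor neuron progenitors also use, which read 70.7, 33.9 and 49.2 in RA and 1409, 936 and 348 with Ag1.3 (log2 fold change 3.59, SE 0.35, adjusted p = 0.018). Without pair 1 or 2 its adjusted p was 0.071 and 0.0846. Tlx3 and Lmx1b, which set glutamate fate in dorsal interneurons, and Sim1 of V3 interneurons had log2 fold changes of 0.05, -0.12 and -0.12. These were chosen after their values were seen, and none of the 3 passed, with adjusted p from 0.612 to 0.876.

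Markers of the labelled neural progenitors were present. All 12 read above the control range and 1, Notch1, rose (adjusted p = 0.0368). Pax6, a progenitor factor graded along the neural tube, was lower in 3 of 3 pairs (-0.48, adjusted p = 0.0535), and 1 of the 12 passed as lower in 5 alternatives. Sox2, a factor of all neural progenitors, averaged 2769 in RA and 2586 with Ag1.3. Summed over the list, progenitor genes gave 16638, 15209 and 11487 in RA and 17560, 16017 and 13468 with Ag1.3, higher in each pair. Such sums weigh the brightest genes most and depend on how arrays are scaled. The median change of the progenitor list, 0.15, was -0.04 with spike scaling. Of 7 astroglia genes 0 passed by limma, 4 had values above 0, and the list median was 0.18. The 3 with an unadjusted p under 0.05, Sox9, Fabp7 and Slc1a3, were higher in 3 of 3 pairs with changes of 0.52, 0.39 and 0.32. Fabp7 was also counted among the progenitor genes and Slc1a3 among those of glutamate handling. Aldh1l1 and S100b had changes of -0.12 and -0.11. Gfap, the defining marker of astrocytes, averaged 62.8 and 57.3. Of 10 endoderm and islet genes Sox17 (adjusted p = 0.0159) and Krt8 (adjusted p = 0.0448) fell. The list summed to 832, 962 and 1875 in RA and 521, 634 and 1421 with Ag1.3, lower in each pair. Ins2, the insulin gene of islets, averaged 20.8 and 16.8, near the upper end of the control range. Of 9 pluripotent cell genes Pou5f1 fell (adjusted p = 0.0423), 9 of 9 had values below 0, and 8 of 9 had an unadjusted p under 0.05. With a pseudocount of 64, the filter on the median intensity, spike scaling or the intensity trend in moderation, 8 of the 9 were called lower. The list summed to 5448, 7977 and 9175 in RA and 3405, 5046 and 7011 with Ag1.3, lower in each pair. Notch1, Sox17, Krt8 and Pou5f1 had adjusted p from 0.0517 to 0.255 without any 1 of the pairs. Pax6, Sox2, Fabp7, Aldh1l1, S100b, Gfap and Ins2 here, and Slc6a4, Chat, Ache and Slc5a7 above, were named after their values were seen. Whether these marker changes reflect the cell mix, and what part that had in the values of the 6 transmitter genes, was not tested.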

How the data were processed

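The table holds 1 linear intensity per probe set and array, summarised by the authors before deposit; how they summarised and scaled it, and the genome build, is not given in the sources used here. Per the labels' protocols, biotin-labelled cRNA (3' IVT Express kit) was made from total RNA (mirVana kit). Median intensities of the 6 arrays were 48.7 to 52.6, and precision is limited by the number of arrays. Of 45101 probe sets, 64 controls were left out; 34945 had 1 gene symbol, 932 several and 9160 none listed here. Each of 18193 genes was represented by the probe set with the highest mean log2(intensity + 16). The test was limma's (version 3.58.1, R 4.3.3, lmFit and eBayes), two-sided, with the pair as a block, and adjusted by Benjamini-Hochberg at 0.05 over all genes; a second fit covered all 45037 probe sets. The fit was tested on simulated data. The series' design text pairs the cultures; deviations from group means correlated at 0.54, 0.19 and 0.56 within pairs. P-values measure the spread between parallel cultures of 1 line.

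The 6 genes and the lists were chosen with earlier results of these data known. Named genes were the 6 and, from each list, up to 3 past the threshold with the smallest adjusted p, or 2 by smallest p in a list where none did. A likeness search required a mean above the median gene (96.9), which 0 of the 6 reached, so none was made. Alternatives changed the pseudocount, scaling, filter, block, moderation, probe set choice and pairs.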

Additional observations from a re-analysis of the deposited data

How the results depend on the processing

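Of the 6 transmitter genes 0 passed in limma's test under any alternative that kept them: pseudocounts of 1 and 64, quantile normalization, scaling to hybridization spikes, no replicate block, moderation with a trend on intensity, the mean of a gene's probe sets, all probe sets tested, and without each pair. Their adjusted p ran from 0.328 to 0.983 there, and the filter on genes above the median left none of them. Signs of these small changes were not stable. With spike scaling Gad2 read -0.057 and Slc17a6 -0.016. With the mean of probe sets Gad1 read -0.065, Gad2 -0.12 and Slc6a5 -0.015. Without each pair in turn Gad2 ranged from -0.10 to 0.16 and Slc17a7 from -0.14 to 0.13, and for both genes the sign turned without pair 1. Relative to general neuron genes all 6 stayed below 0 in all 8 alternatives, from -1.01 to -0.53, as a gene with no change would wherever that reference rose. The count of 252 changed genes was 0 with a pseudocount of 1 (2411 at limma's unadjusted p under 0.05), 831 with 64, 910 of 9096 with the filter, 1807 with spike scaling and 891 with the trend. It was 86 without the replicate block and 35 to 62 without one pair. Calls with spike scaling rest on nearly the same variance for all genes. The share of higher genes, 77.4%, was 17.4% with spike scaling, 56.9% with a pseudocount of 64, 53.1% with the filter, 57.8% with the trend and 90.7% without the block. Alternatives for the named genes of other lists were added after seeing the data, and none turned a sign. Low signal over background limits all statements on the 6 genes.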
